A study of Mus musculus with 5 samples.

Results

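Cytosolic ribosomal protein genes encode the protein subunits of the ribosomes that translate messenger RNA in the cytoplasm. They were selected by symbol in the array annotation, as Rpl or Rps followed by a number and an allowed suffix, together with the P stalk genes and Rpsa, whereas the S6 kinase genes (Rps6k) and pseudogenes were left out. This gave 49 of the 18194 genes named by probe sets that list 1 gene, and 105 of the 45101 probe sets on the array. A probe set is a group of short oligonucleotides whose fluorescence is summarised as 1 signal for a transcript. A further 110 probe sets list a ribosomal protein gene together with other genes, mostly pseudogenes or retrotransposed copies, and are described apart. Genes without a probe set that lists 1 gene were not among the genes tested. They include Rplp1, Rpl10l and Rpl36al, and many other subunit genes, such as Rpl3, Rpl5, Rpl23, Rps12 and Rps21. The 49 genes are thus a part of the cytosolic ribosomal protein genes.

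Adult mouse optic nerves were kept as organotypic cultures for 3 days with LY294002, a small molecule inhibitor of PI3 kinase with activity on other kinases, and their RNA was measured on Affymetrix mouse arrays. L-LY29 comprised 3 arrays of nerves at 0.5 µM and H-LY29 comprised 2 arrays at 50 µM, and both came from C57BL/6 mice aged P35 to P45 without any transgene named in the labels. The compound is spelled LY294002 in some label fields and LY295002 in others, and the study's methods state another low dose for adult nerves, so the doses here are those of the labels. No untreated or vehicle array is analysed here, so every difference is L-LY29 minus H-LY29 and neither dose is a baseline. The labels do not state that each array was hybridised with RNA of other mice or cultures, hence a p-value here covers the spread among arrays alone, which may be technical.

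The ribosome has a small subunit, which decodes the messenger RNA, and a large subunit, which joins the amino acids. Each is built from ribosomal RNA made by RNA polymerase I and from the Rps and Rpl proteins that are assembled with it in the nucleolus. The messenger RNAs of these proteins start with a run of pyrimidines, the 5′ terminal oligopyrimidine (TOP) motif, through which mTORC1, a kinase complex downstream of PI3 kinase and Akt, sets their translation. Oligodendrocytes make large amounts of myelin protein, and signalling through PI3 kinase, Akt and mTOR is known to drive their growth and myelination.

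The arrays of each dose were close to each other, and differed from those of the other dose in ways that do not concern ribosomes. The median signal was 5.33 to 5.35 log2 units on the L-LY29 arrays and 5.54 to 5.56 on the H-LY29 arrays. Bacterial poly-A control transcripts, which are added to RNA before labelling, averaged 10.22 on L-LY29 arrays over 24 probe sets, and 3.17 on H-LY29 arrays. The difference between 3′ and 5′ probe sets, a sign of RNA integrity and of labelling, was 0.43 for beta-actin and −0.13 for Gapdh in L-LY29, against 0.92 and 0.69 in H-LY29. Dose and the handling of the arrays cannot be told apart in this design. Of the mature oligodendrocyte markers, 7 of 8 were tested, and their mean signal was 12.52 to 12.60 on L-LY29 arrays and 12.50 to 12.66 on H-LY29 arrays. Of these 7 genes, 4 were higher and 3 lower, with differences from −1.13 (Mog) to 0.89 (Mag). All 8 ocular surface epithelium genes were tested and averaged 8.30 to 10.90 on L-LY29 arrays against 4.01 to 4.33 on H-LY29 arrays, whereas all 6 fibroblast genes averaged 7.52 to 8.23 on L-LY29 arrays against 10.85 to 11.17 on H-LY29 arrays, and all 6 astrocyte genes 8.46 to 9.29 on L-LY29 arrays against 10.83 to 10.97 on H-LY29 arrays. The median differences were 0.99 for the 6 microglia genes, 0.59 for the 5 endothelium genes, −0.87 for the 4 oligodendrocyte precursor genes and 1.07 for the 4 neuron genes. Each of these lists held genes called both ways. The counts were 5 higher and 1 lower for microglia, 2 and 1 for endothelium, 1 and 2 for precursors and 3 and 1 for neurons. The part of the marker differences in the ribosomal protein values was not tested. In RNA of whole nerves, fewer cells of a type and less RNA per cell cannot be told apart.

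Ribosomal protein probe sets occupied the top of the signal range in both doses. The median member probe set had a signal of 13.08 to 13.10 on the L-LY29 arrays and 12.72 to 12.75 on the H-LY29 arrays, both above 99.3% of all probe sets. Of the 97 probe sets tested on the array whose mean was 13 log2 units or more, 56 were members. The highest signal on any array was 14.45. No member had a dose mean within 0.5 log2 units of it in L-LY29, and 2 did in H-LY29, namely Rpl35 at 14.07 and Rplp2 at 14.01, compared with 18 and 13 of all probe sets. Within 1 unit of the highest signal were 29 of the 105 member probe sets in L-LY29 and 22 in H-LY29. Signals this close to the upper limit of an array can be compressed, so differences there may be smaller than the change in RNA. The spread between arrays was small. The median SD of a tested member probe set was 0.02 in L-LY29 (n = 3) and 0.06 in H-LY29 (n = 2), compared with 0.10 and 0.14 for all probe sets tested. Signals identical to the last digit were found on 2 or more L-LY29 arrays for 33 of the 105 member probe sets (31.4%, against 39.5% of all probe sets) and on all 3 for 9 of them. The smallest p-values rest on these spreads.

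Of the 49 genes, 47 passed the filter on low signal, all but Rpl3l and Rps16, and were tested on their brightest probe set. In L-LY29 relative to H-LY29, 24 were higher, 12 were lower and 11 were not called (limma, adjusted p under 0.05 over all 12935 genes tested). Of all genes, 73.8% were called in either direction, with 27.1% higher and 46.6% lower, so that the share called among ribosomal protein genes was near that of all genes. The median difference of the 47 genes was 0.19 log2 units, with quartiles of −0.19 and 0.62, against −0.26 for all genes tested. The median size of the difference regardless of its direction was 0.43, compared with 0.81 for all genes. L-LY29 and H-LY29 arrays did not overlap for 37 of the 47 genes, against 83.1% of all genes. The balance of directions depended on the scaling of the arrays. After quantile normalisation the median of all genes was 0.06, and that of the ribosomal protein genes was 0.09, a distance of 0.03 in place of 0.46, with 21 genes higher and 15 lower, against 39.5% and 36.4% of all genes. With equal array medians, 31 were higher and 8 lower, and the medians were 0.41 for the ribosomal protein genes and −0.05 for all genes. Without L-LY29 replicate 3 the median of the ribosomal protein genes was 0.07, and leaving out each array in turn gave 22 to 26 genes higher and 12 to 14 lower.

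For the single genes, the calls under both scalings were as follows. On the same probe sets, 22 of the 24 higher genes remained higher after quantile normalisation, except Rps18 and Rps20, and 11 of the 12 lower genes remained lower, except Rpl14. Equal array medians add 0.21 log2 units to every difference, so that higher genes can only move further up. Of the 12 lower genes, 8 remained lower, whereas Rpl6, Rpl19, Rps9 and Rpsa were no longer called and the sign of Rpl6 and Rpsa turned. Of the 11 genes that were not called, 3 (Rpl4, Rpl22 and Rps19) were called lower after quantile normalisation, and these 3 were among the 7 that were called higher with equal array medians.

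**Figure D1:**
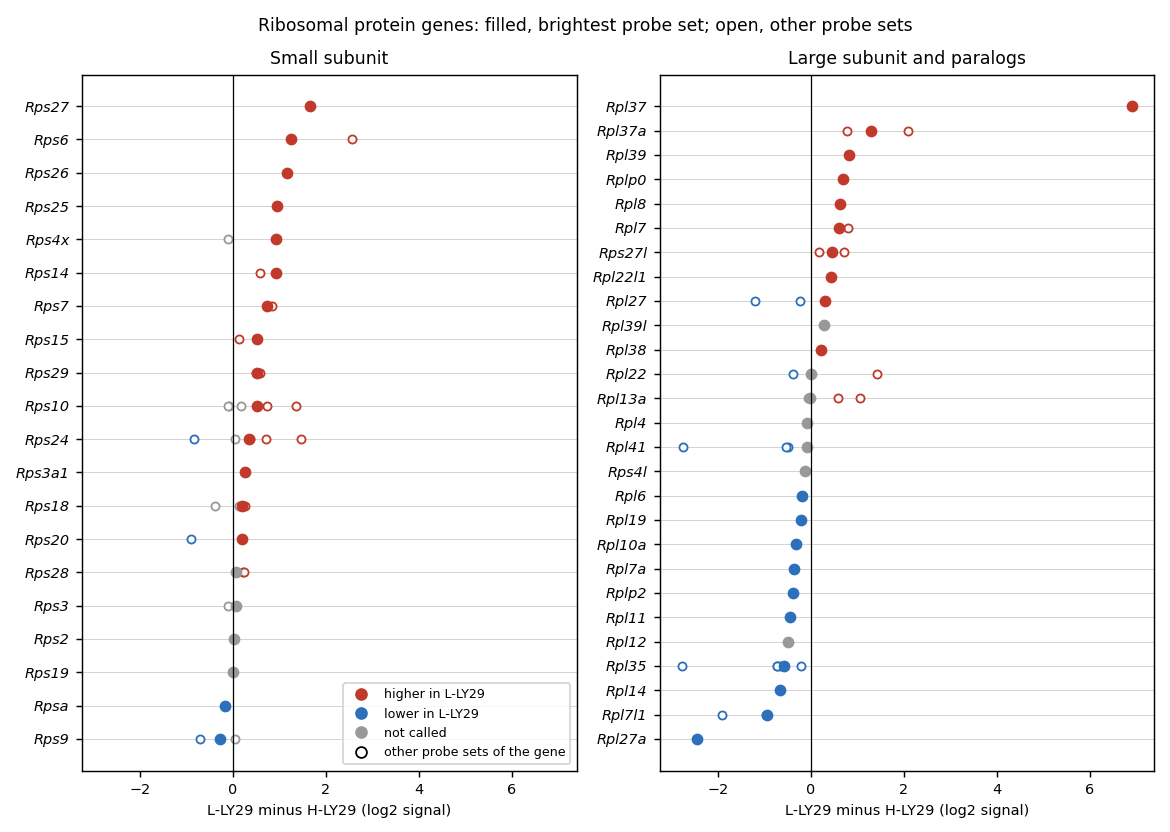
L-LY29 minus H-LY29 difference in log2 signal (x axis) of every ribosomal protein probe set tested, by gene, with small subunit genes on the left and large subunit genes and paralogs on the right. Filled points are the brightest probe set of a gene and open points its other probe sets, coloured by limma call. Among the filled points, Rpl37 at 6.91 and Rpl27a at −2.45 lie farthest out, and among the open points Rpl35 at −2.76 and Rpl41 at −2.75.

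Among the 20 small subunit genes tested, 14 were higher in L-LY29 and 2 were lower, Rps9 and Rpsa, and the median difference was 0.43. The 4 genes that were not called were Rps2, Rps3, Rps19 and Rps28, with differences of 0.00 to 0.07. After quantile normalisation the counts were 13 higher and 3 lower, with a median of 0.33, and with equal array medians 18 higher and 0 lower, with a median of 0.64. Rps27, a zinc finger protein of the small subunit, had signals of 10.08, 10.21 and 10.09 on the L-LY29 arrays, against 8.41 and 8.54 on the H-LY29 arrays. Every L-LY29 array was above both H-LY29 arrays, and the difference was 1.66 ± 0.08 (SE, adjusted p = 7.17e-05). A second probe set that lists Rps27 with its retrotransposed copy Rps27rt went the other way, with a mean of 13.62 in L-LY29 and 13.85 in H-LY29, a difference of −0.23 (adjusted p = 0.00894).

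Rps6 is the substrate of the S6 kinases, and its phosphorylation is a common readout of mTORC1 activity, which these arrays do not measure. Its signals were 11.65, 11.77 and 11.73 in L-LY29, against 10.33 and 10.59 in H-LY29, without overlap, and the difference was 1.25 ± 0.09 (SE, adjusted p = 0.000211). Its other probe set averaged 6.42 in L-LY29 and 3.87 in H-LY29, which is below the filter of 4.77, so that it passed through L-LY29 alone and its difference of 2.56 is not counted as support. The 9 probe sets that list Rps6 with the pseudogene Rps6-ps4 ranged from −0.13 to 1.93 with a median of 0.48, and 8 were higher and 1 was lower. Of the 8, the probe set at the median averaged 5.02 in L-LY29 and 4.54 in H-LY29. It likewise passed the filter through L-LY29 alone and is not counted as support.

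Rps26, which contacts the messenger RNA upstream of the start codon, had signals of 13.45, 13.49 and 13.47 in L-LY29, against 12.37 and 12.25 in H-LY29. This was the largest difference among small subunit genes above 13 log2 units in L-LY29 on their brightest probe set, at 1.15 ± 0.05 (SE, adjusted p = 5.57e-05). Rps25, required for initiation at some internal ribosome entry sites, had 11.38, 11.64 and 11.42 in L-LY29, against 10.50 and 10.55 in H-LY29. Its difference was 0.95 ± 0.09 (SE, adjusted p = 0.000517), although the probe set that lists it with 2 other genes was lower by 0.38, with means of 13.29 in L-LY29 and 13.67 in H-LY29. Rps4x, the X-linked form of this subunit protein, averaged 13.69 ± 0.01 in L-LY29 and 12.76 ± 0.06 in H-LY29 (SD, n = 3 and 2), a difference of 0.93. Its second, dim probe set differed by −0.10 and was not called. Rps14, whose loss of 1 copy causes the anaemia of the 5q- syndrome in human, averaged 13.79 ± 0.04 in L-LY29, against 12.87 ± 0.22 in H-LY29, and both of its probe sets were higher, by 0.92 and 0.58.

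The remaining higher small subunit genes differed by 0.19 to 0.73. Rps29, a short zinc-binding protein, had 3 probe sets that differed by 0.49 to 0.59, the closest match among genes with 3 or more probe sets called in the same direction. Rps3a1 was the brightest called gene with a difference within 0.5 log2 units of 0, at 13.91 on each of the 3 L-LY29 arrays, against 13.67 and 13.64 on the H-LY29 arrays, a difference of 0.26 ± 0.03 (SE, adjusted p = 0.000584). Of the 2 lower genes, Rpsa, the laminin receptor precursor that sits on the small subunit, had 13.62, 13.64 and 13.64 in L-LY29, against 13.85 and 13.78 in H-LY29, a difference of −0.18 that was 0.04 with equal array medians. Rps9 was at 13.45 on each of the 3 L-LY29 arrays and at 13.71 and 13.75 on the H-LY29 arrays, and differed by −0.29. These 2 were thus lower by less than most of the higher genes were higher.

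Among the 22 large subunit genes tested, 8 were higher in L-LY29 and 9 were lower, and the median difference was −0.08. After quantile normalisation 7 were higher and 11 lower, with a median of −0.15. Equal array medians gave 11 higher and 7 lower, with a median of 0.13. The difference between the subunits was not tested. Among probe sets, 29 of the 47 of small subunit genes were higher and 5 lower, compared with 15 and 20 of the 41 of large subunit genes, while 29.0% of all probe sets tested were higher and 43.7% lower. These subunit counts leave out the probe sets that list several genes. Among those of large subunit genes, more were called higher (such as Rpl5, Rpl21 and Rpl26) than lower (such as Rpl28, Rpl29 and Rpl36). Over all classes, 48 of the 97 member probe sets were higher and 28 lower, where 72.8% of all probe sets were called, and the arrays of the doses did not overlap for 80 of them, against 82.0%.

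Rpl37, a zinc finger protein of the large subunit, showed the widest difference of all members. Its probe set had signals of 11.88, 11.98 and 11.93 in L-LY29, against 5.05 and 4.99 in H-LY29, and the difference was 6.91 ± 0.06 (SE, adjusted p = 2.31e-05). The H-LY29 signals were near the filter of 4.77 log2 units. The 3 probe sets that list Rpl37 with its copy Rpl37rt differed far less. The first averaged 13.75 in L-LY29 and 12.27 in H-LY29, the second 13.45 and 12.92, and the third 9.30 and 8.92, with differences of 1.48, 0.53 and 0.37, of which the last was not called (adjusted p = 0.139). All 4 thus had the same sign, and a change of the size of the first was seen on 1 probe set alone.

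Rpl37a, a related zinc finger protein, had signals of 13.94, 13.97 and 13.94 in L-LY29, against 12.71 and 12.60 in H-LY29, a difference of 1.30 ± 0.04 (SE, adjusted p = 4.49e-05). Its other 2 probe sets differed by 0.77 and 2.10, and a probe set that lists it with the microRNA gene Mir682 by 4.81, with means of 10.11 in L-LY29 and 5.30 in H-LY29. Rpl37a was therefore higher on each probe set that names it. Rpl39, which lines the tunnel through which the new peptide leaves the ribosome, averaged 5.80 ± 0.04 in L-LY29 and 4.97 ± 0.14 in H-LY29 on a dim probe set (difference 0.82), and the probe set that lists it with another gene differed by 0.37. Rpl7 was higher on all 3 of its probe sets, by 0.60 to 0.81.

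Rpl27a had the widest negative difference among the brightest probe sets of the genes. Its signals were 11.27, 11.31 and 11.24 in L-LY29, against 13.72 and 13.74 in H-LY29, and the difference was −2.45 ± 0.04 (SE, adjusted p = 4.04e-05). A probe set that lists Rpl27a with 4 predicted genes had 13.68 on all 5 arrays, identical to the last digit, and a dim probe set below the filter differed by 0.54. The lower signal in L-LY29 was therefore seen on 1 of the 3 probe sets that name this gene.

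Rpl35, which stands at the exit of the peptide tunnel, was lower in L-LY29 on 5 probe sets, with differences from −0.73 to −0.21, and on a sixth that was dim. On its brightest, the signals were 13.45, 13.53 and 13.53 in L-LY29, against 14.11 and 14.03 in H-LY29, a difference of −0.57 ± 0.04 (SE, adjusted p = 0.000244). The dim probe set had 4.33, 4.41 and 4.70 in L-LY29 and 7.15 and 7.33 in H-LY29, and passed the filter of 4.77 through H-LY29 alone, so that its difference of −2.76 is not counted as support. Since H-LY29 was within 0.5 units of the highest signal on the brightest probe set, the difference there may be compressed. Rpl41, the shortest ribosomal protein, was lower on 3 of its 4 probe sets, with differences from −2.75 to −0.49. Its brightest probe set differed by −0.09 and was not called.

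The other lower large subunit genes had narrower differences. Rpl14 averaged 7.83 ± 0.11 in L-LY29 and 8.50 ± 0.06 in H-LY29, a difference of −0.67, which was not called after quantile normalisation (adjusted p = 0.121). The 5 probe sets that list it with a pseudogene differed by −0.14 to 0.17, with 1 higher and 1 lower. Rpl11, which binds and inhibits the p53 ligase Mdm2 when ribosome assembly is disturbed, had 13.23, 13.26 and 13.26 in L-LY29, against 13.71 and 13.66 in H-LY29, a difference of −0.43 ± 0.03 (SE, adjusted p = 0.000198). Rpl7a averaged 13.45 ± 0.02 in L-LY29 and 13.81 ± 0.03 in H-LY29, a difference of −0.36. Rpl10a, the protein of the mobile L1 stalk, averaged 13.08 ± 0.00 in L-LY29 and 13.40 ± 0.02 in H-LY29, a difference of −0.32. Rpl19 and Rpl6 differed by −0.21 and −0.20. Rpl12 was not called, since its H-LY29 arrays were at 8.59 and 9.39 (SD 0.56), the widest spread within a dose among the members.

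The P stalk, a flexible arm of the large subunit that recruits elongation factors, held genes that went opposite ways on their own probe sets. Rplp0, the scaffold of the stalk, had 13.66, 13.70 and 13.67 in L-LY29, against 13.09 and 12.88 in H-LY29, a difference of 0.69 ± 0.07 (SE, adjusted p = 0.000493). Rplp2, an acidic protein carried on this scaffold, had 13.64 on each of the 3 L-LY29 arrays, against 14.03 and 13.99 on the H-LY29 arrays, a difference of −0.37 ± 0.03 (SE, adjusted p = 0.000207). Rplp1, the other acidic protein, is listed with the predicted gene Gm13777 on a probe set at 13.96, 13.94 and 13.96 in L-LY29, against 13.29 and 13.28 in H-LY29, a difference of 0.67 (adjusted p = 4.31e-05). The directions of Rplp0 and Rplp2 held after quantile normalisation and with equal array medians.

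**Figure D2:**
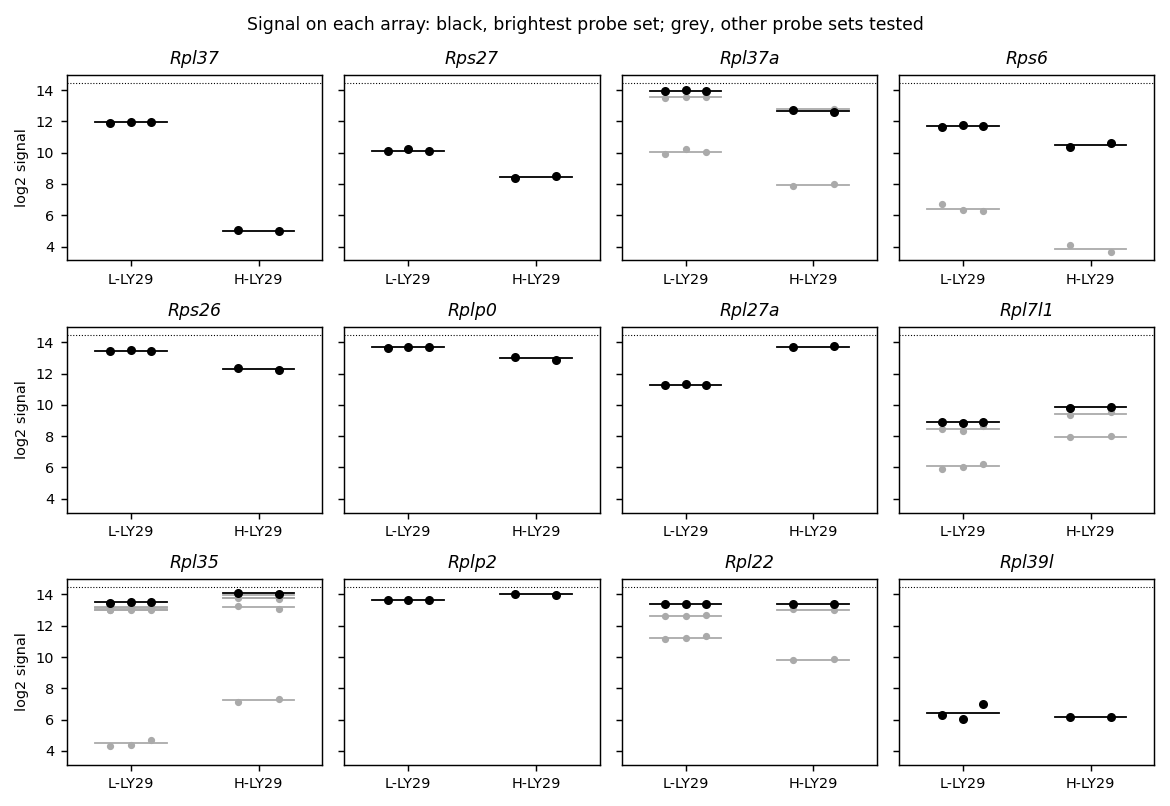
Log2 signal (y axis) on each array for 12 ribosomal protein genes, with the 3 L-LY29 arrays left of the 2 H-LY29 arrays; black points are the brightest probe set, grey points the other probe sets tested, bars the means and the dotted line the highest signal on any array. Rpl37 lies near 5 in H-LY29, Rpl27a is lower in L-LY29, and Rpl35 and Rplp2 come closest to the dotted line in H-LY29.

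The sequences around the start sites of the genes with the widest differences are shown because mTORC1 acts on these messages through their first bases. Of the 49 genes, 43 matched the RefSeq promoter table (GRCm38.p6), with 51 start sites in all. Each line below covers 40 bases before the annotated start and the first 20 bases of the transcript, on the strand of the gene, for the 4 higher and the 4 lower genes with the largest difference. Capitals mark CTTTC, a pyrimidine run of the kind found at TOP starts, and CGGAAG or its reverse complement CTTCCG, the core of ETS factor sites.
Rpl37: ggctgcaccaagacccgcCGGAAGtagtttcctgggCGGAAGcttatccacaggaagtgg
Rps27: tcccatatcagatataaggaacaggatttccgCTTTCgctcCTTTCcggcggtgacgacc
Rpl37a: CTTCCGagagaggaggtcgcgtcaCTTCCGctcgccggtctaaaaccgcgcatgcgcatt
Rps6: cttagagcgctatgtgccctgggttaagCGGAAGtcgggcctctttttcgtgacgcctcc
Rpl27a: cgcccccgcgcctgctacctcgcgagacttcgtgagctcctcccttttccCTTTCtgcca
Rpl7l1: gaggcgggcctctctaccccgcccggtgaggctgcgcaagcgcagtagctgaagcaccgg
Rpl14: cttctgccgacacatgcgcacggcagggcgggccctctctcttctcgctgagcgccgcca
Rpl35: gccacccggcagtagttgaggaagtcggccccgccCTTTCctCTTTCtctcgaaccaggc

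The windows lie at chr15:5116573-5116632 on the plus strand for Rpl37, chr3:90213629-90213688 on the minus strand for Rps27, chr1:72711220-72711279 on the plus strand for Rpl37a and chr4:86857348-86857407 on the minus strand for Rps6. Those of the lower genes lie at chr7:109519155-109519214 on the plus strand for Rpl27a, chr17:46782637-46782696 on the minus strand for Rpl7l1, chr9:120571477-120571536 on the plus strand for Rpl14 and chr2:39005112-39005171 on the minus strand for Rpl35. In these short windows CTTTC occurred in Rps27, which was higher in L-LY29, and in Rpl27a and Rpl35, which were lower. CGGAAG or CTTCCG occurred in Rpl37, Rpl37a and Rps6, which were higher, and neither motif occurred in Rpl7l1 and Rpl14. The marks do not show which transcripts start with a TOP run. The first CTTTC of Rps27 and of Rpl35 lies before the annotated start. Rps6 and Rpl14 start with pyrimidines that are not marked (ctctttttc and cttctc). Over the whole window of 250 bases before and 50 after the start, CTTTC occurred on the strand of the gene in 31 of the 51 member promoters (60.8%), compared with 34.8% of all 32851 promoters, and on the other strand in 41.2% and 34.1%. It was present on the gene strand in 11 of 21 promoters of higher genes and in 11 of 14 of lower genes. On the other strand, which is not in the transcript, the split was 5 of 21 and 8 of 14. CGGAAG occurred on the gene strand in 31.4% of member promoters and 9.51% of all promoters, and on the other strand in 39.2% and 9.38%. It was present on the gene strand in 10 of 21 promoters of higher genes and in 3 of 14 of lower genes. On the other strand it was present in 9 of 21 and 6 of 14, which is 42.9% of each. These splits were not tested. Neither motif contains the other, and a match describes letters in a window and not a site that is used.

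Paralogs with restricted expression or a near copy gave mixed differences, and 5 of the 6 measured were tested. Rpl22l1, a paralog of Rpl22, averaged 12.29 ± 0.04 in L-LY29 and 11.86 ± 0.00 in H-LY29, a difference of 0.43 ± 0.04 (SE, adjusted p = 0.000481). Rps27l, which p53 induces, was higher than in H-LY29 on all 3 of its probe sets, by 0.18 to 0.72. Rpl7l1, which resembles Rpl7, had 8.92, 8.85 and 8.92 in L-LY29, against 9.79 and 9.88 in H-LY29, a difference of −0.94 ± 0.06 (SE, adjusted p = 0.000183), and its other 2 probe sets were lower by 0.96 and 1.91. Thus the Rpl7 and Rpl7l1 probe sets had opposite directions, 3 of 3 higher for Rpl7 and 3 of 3 lower for Rpl7l1. Rpl39l, a testis-enriched copy of Rpl39, was not called. Its L-LY29 arrays were at 6.27, 6.05 and 7.02, against 6.14 and 6.19 in H-LY29, so that the mean difference of 0.28 came from replicate 3, without which it was −0.01. Rps4l was not called either, with means of 8.75 in L-LY29 and 8.87 in H-LY29. Rpl3l, the form of striated muscle, was below the filter at 4.15 in L-LY29 and 3.92 in H-LY29.

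In 4 genes, probe sets of the same gene were called in opposite directions, so that a single direction cannot be given for them. Rpl22 differed by 0.00 on its brightest probe set, by −0.37 on the second (12.65 in L-LY29, 13.02 in H-LY29) and by 1.42 on the third (11.25 in L-LY29, 9.83 in H-LY29). Rpl27 differed by 0.30 (12.93 in L-LY29, 12.63 in H-LY29), by −1.19 (12.32 in L-LY29, 13.51 in H-LY29) and by −0.24 on 3 probe sets of like brightness. Since their mean signals were almost equal, the brightest was another one after quantile normalisation or without any single L-LY29 array, and the gene was then lower. Rps20 differed by 0.19 and 0.20 on bright probe sets and by −0.90 on a dim one (5.20 in L-LY29, 6.10 in H-LY29). Rps24 was higher on 3 bright probe sets, by 0.34 to 0.72, and lower by 0.85 on 1 dim probe set. It was also higher by 1.46 on a probe set whose H-LY29 mean of 4.19 was below the filter, and which passed through L-LY29 alone. Disagreement in size was more common than in direction. Rps10 ranged from −0.11 to 1.36 over 6 probe sets, with 3 higher and none lower, and Rpl13a ranged from −0.05 to 1.07 over 4, with 2 higher and none lower. However, the 2 probe sets that list Rpl13a with another gene were both called lower, with differences of −0.27 and −1.38. The second had an L-LY29 mean of 4.25, below the filter, and passed through H-LY29 alone.

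Probe sets that list several genes gave a second view of only some of the genes tested. Many of them list ribosomal protein genes without a probe set of their own, such as Rpl5, Rpl21 and Rpl26. The counts that follow therefore also cover genes that were not among those tested. Of the 110, 105 passed the filter, and 54 were higher, 26 lower and 25 not called in L-LY29. With these included, 72.8% of all probe sets were called, 29.2% higher and 43.6% lower. The arrays of the doses did not overlap for 89 of the 105, against 82.0% of all. Their median difference was 0.15, within a range of −2.06 to 4.81. For 10 of the called genes, such a probe set was tested beside their own. Of these 24 probe sets, 19 had a smaller difference than the gene's own brightest probe set, and Rps6, Rpl14, Rps25 and Rps27 were each called in the other direction on 1 of them. The size of the widest differences, of Rpl37, Rpl27a and Rps27, was therefore not repeated on probe sets that also list their copies. The direction of Rpl37 was repeated, with 2 of 3 such probe sets called higher. Differences were wider than on their own for Rpl37a (4.81) and Rps7 (1.03), and on some probe sets of Rps6.

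Differences were narrower among the bright probe sets of members. The median size of the difference was 0.85 in the 13 member probe sets with a mean under 8, 0.72 in the 17 with a mean of 8 to 12, and 0.37 in the 67 with a mean of 12 or more. From 9 to 12 log2 units, the 13 members had a median size of 0.94, and the other probe sets had 0.75. From 12 to 13, the 11 members had 0.37, and the others had 0.60. In the range of 13 to 13.5 log2 units, the 36 member probe sets had a median size of 0.52, and 27 other probe sets had 0.61. Above 13.5, the 20 members had a median size of 0.27, and the 14 others had 0.61. By probe design, 9 of the 28 probe sets matched to 1 transcript (suffix _at) were higher and 13 lower, with a median of −0.20. Of those that allow shared probes (_x_at), 22 of 39 were higher and 7 lower, with a median of 0.22. Without all _s_at and _x_at probe sets, 20 of 42 genes were higher and 16 lower, and their median was 0.12.

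**Figure D3:**
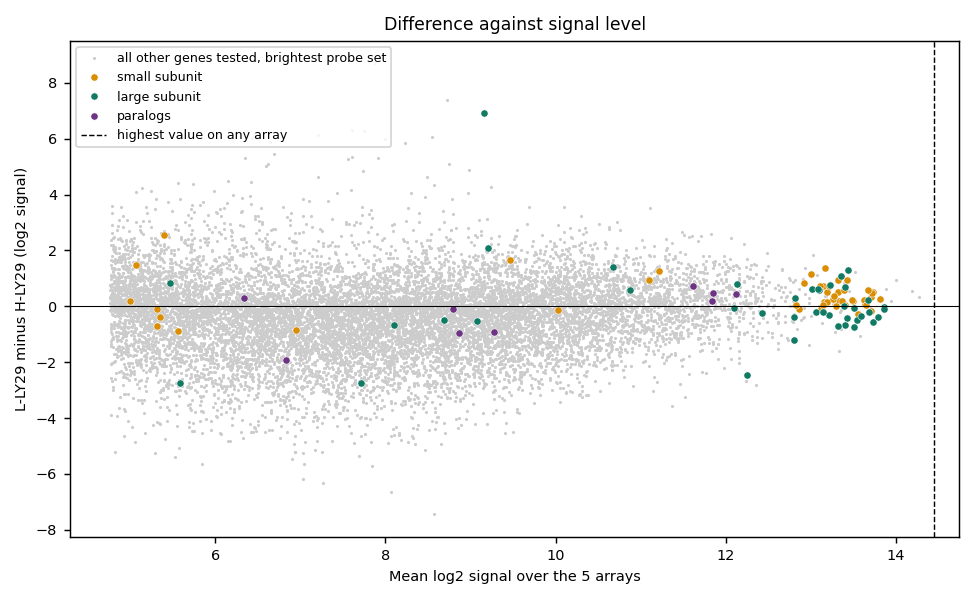
L-LY29 minus H-LY29 difference (y axis, log2 signal) against the mean signal over the 5 arrays (x axis, log2) for every ribosomal protein probe set tested, coloured by subunit, over the brightest probe set of each other gene in grey; the dashed line is the highest signal on any array, 14.45. Most members form a group above 13 log2 units, with Rpl37 far above it.

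Other genes of the translation machinery were described from lists chosen with earlier results in view. Of the 9 genes tested in the elongation factor list, 6 were higher in L-LY29 and 2 lower, with a median of 0.37, where 27.1% of all genes were higher and 46.6% lower. This list also holds Eef2k, a kinase and not a factor, which was among its lower genes. After quantile normalisation 5 were higher and 2 lower, against 39.5% and 36.4% of all genes. Eef2, which moves the ribosome along the message, averaged 12.80 in L-LY29 and 11.89 in H-LY29 (difference 0.91), whereas its inhibitory kinase Eef2k averaged 8.22 in L-LY29 and 10.34 in H-LY29 (difference −2.12). Of 17 other TOP messages tested, 12 were higher and 4 lower, with a median of 0.23, and after quantile normalisation 9 were higher and 5 lower. Pabpc1, the poly(A) binding protein, averaged 12.72 in L-LY29, against 11.23 in H-LY29, and Npm1, a nucleolar chaperone, 12.93 in L-LY29 and 12.25 in H-LY29. Vim, the intermediate filament of glia and fibroblasts, was lower in L-LY29 by 0.97. These 2 lists had medians on the same side of 0 as the ribosomal protein genes under each of the 3 scalings. After quantile normalisation, however, the median of all genes was also above 0, at 0.06. So were those of the RNA polymerase I (0.10) and the S6 kinase and mTORC1 (0.15) lists described below.

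Mitochondrial ribosomal proteins, which are encoded apart and serve the ribosomes of mitochondria, had more genes lower than higher, as had all genes tested. Of the 76 tested, 9 were higher in L-LY29 and 47 lower, against 27.1% and 46.6% of all genes. Their median was −0.52, against −0.26 for all genes. After quantile normalisation 19 were higher and 37 lower, against 39.5% and 36.4% of all genes, with a median of −0.22. The smallest adjusted p in this list belonged to Mrps23, which had 8.55 on each L-LY29 array, against 9.87 and 9.92 on the H-LY29 arrays. Among 38 ribosome biogenesis factors, 10 were higher and 18 lower, with a median of −0.21, where 27.1% of all genes were higher and 46.6% lower. After quantile normalisation 15 were higher and 14 lower, with a median of −0.02, and with equal array medians 14 and 16, with a median of 0.00. Sdad1 and Ddx21 had differences of −3.02 and −2.46, and Ncl, the nucleolar protein nucleolin, was higher by 1.34. Of the 17 genes of RNA polymerase I and its factors, 2 were higher and 9 lower, against 27.1% and 46.6% of all genes, with a median of −0.33. The higher genes were Polr2f and Polr2h, by 1.54 and 0.56. After quantile normalisation 5 were higher and 5 lower, with a median of 0.10. The counts of this list moved with single arrays, with 4 higher without either H-LY29 replicate and 5 lower without L-LY29 replicate 2 or 3. Rrn3, which links this polymerase to growth signals, averaged 7.73 in L-LY29, against 10.85 in H-LY29, and Ubtf, which binds the ribosomal DNA promoter, 9.42 in L-LY29 and 11.27 in H-LY29.

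Of 16 tested genes of the S6 kinases and mTORC1, 4 were higher and 8 lower in L-LY29, against 27.1% and 46.6% of all genes, with a median of −0.29, which was 0.15 after quantile normalisation, with 7 higher and 6 lower. Without L-LY29 replicate 2 or 3, 2 were higher. Larp1, the mTORC1 substrate that binds and represses TOP messages, had 8.66, 8.66 and 8.56 in L-LY29, against 10.88 and 10.84 in H-LY29, a difference of −2.23 ± 0.06 (SE, adjusted p = 4.24e-05). Mtor itself averaged 7.70 in L-LY29 and 8.44 in H-LY29 (difference −0.75). Rheb, the small GTPase that activates mTORC1, and Eif4e, the cap-binding protein, were higher in L-LY29 by 0.87 and 0.86.

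**Figure D4:**
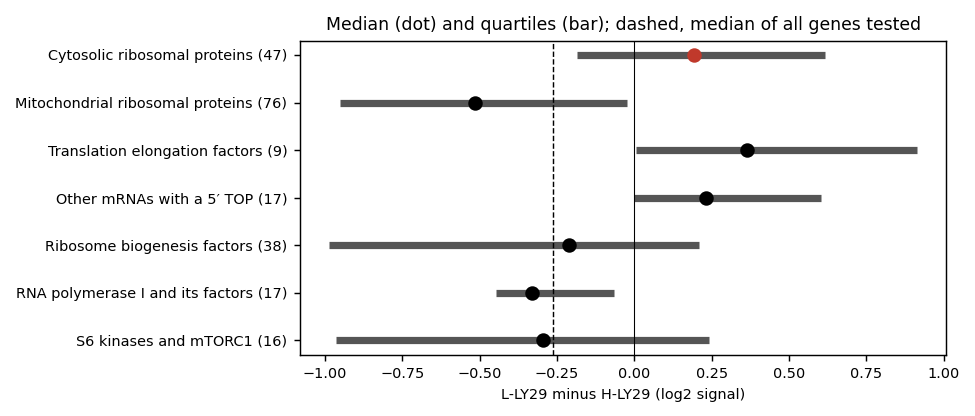
Median (dot) and quartiles (bar) of the L-LY29 minus H-LY29 difference in log2 signal (x axis) for the ribosomal protein genes (red) and 6 other translation lists, with the number of genes tested in brackets and the median of all genes, −0.26, as a dashed line. The ribosomal protein genes, elongation factors and other TOP messages have medians above 0 and the other lists below it; after quantile normalisation the RNA polymerase I and S6 kinase lists turn to 0.10 and 0.15.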

How the data were processed

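RNA of cultured optic nerves was measured on 5 arrays, of which 3 were labelled with the L-LY29 dose and 2 with that of H-LY29. The deposited table holds a log2 signal for each of 45101 probe sets, which the authors produced with Affymetrix and GeneSpring software, naming the MAS-5 algorithm. The scaling target, and whether both doses were processed in 1 run, are not given in the sources used here, and array number limits the precision. Values were used as deposited. Probe sets listing 1 gene (34958) were kept for tests if their mean reached the 40th percentile, 4.77, and the brightest stood for its gene. limma 3.58.1 in R 4.3.3 (lmFit, eBayes with an intensity trend, two-sided) compared the doses, with Benjamini-Hochberg adjustment over all features and a threshold of 0.05, and was tested on simulated data. Members and lists were chosen with earlier results of these data known.

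Values were given for the 8 called genes with the largest difference each way, genes called both ways, the 4 brightest called genes with differences within 0.5, those near the highest signal, paralogs, the P stalk genes, Rpsa and Rps6. Rpl6, Rpl12, Rpl13a, Rpl19, Rpl41, Rps9, Rps10, Rps29 and the genes not called in the small subunit were added after their values were seen. Alternatives covered the filter, floor, scaling, moderation, replicate block, each array left out, probe set choice, suffix, the upper signal limit and an unpaired t-test on the same values. Probe sets listing several genes were added after seeing the data. RefSeq sequences were matched by symbol with Python 3.11.15.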

Additional observations from a re-analysis of the deposited data

How the results depend on the processing

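With 3 and 2 arrays, equal values within L-LY29 and no control array, these data limit what a small difference can show. The median difference of the ribosomal protein genes was 0.094 after quantile normalisation, 0.41 with equal array medians and 0.12 without _s_at and _x_at probe sets, and that of their probe sets was 0.084, 0.39 and 0.058. The deviations of same-numbered arrays from their dose mean correlated at 0.017 and 0.035. With 2 H-LY29 arrays, these deviations mirror each other, so the values cannot decide whether the replicate numbers pair the arrays. With the replicate number as a block, 21 genes were higher and 10 lower, the median of the probe sets was 0.14, Rps20 (adjusted p = 0.084) and Rpsa (adjusted p = 0.0818) were not called, and Rpl39l was at −0.0055. Leaving out 1 array at a time gave medians of 0.068 to 0.24 for genes and 0.14 to 0.20 for probe sets, with 22 to 26 genes higher and 12 to 14 lower. Without _s_at and _x_at probe sets 25 probe sets were higher. With several-gene probe sets included, 102 were higher and 54 lower. Within 1 log2 unit of the highest signal were 29 member probe sets for L-LY29, against 22 for H-LY29, and 0 were within 0.25 of it for H-LY29.

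Quantile normalisation gave 19 mitochondrial ribosomal proteins higher, 5 RNA polymerase I genes higher and 5 lower, and 7 S6 kinase and mTORC1 genes higher. Without 1 array, the RNA polymerase I list had 2 to 4 higher and 5 to 9 lower, and the S6 kinase list 2 to 6 higher.

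Of the named genes, these turned sign. Rpl22 was at −0.10 after quantile normalisation, −0.0079 to 0.017 without an H-LY29 array and −0.37 without _s_at and _x_at probe sets. Rpl27 was at −1.29 after quantile normalisation, −0.38 as the mean of its probe sets, and −1.22 to 0.36 without 1 array, where all 3 settings without an L-LY29 array gave a negative value. Rps20 was at −0.17 as a mean and −0.90 without _s_at and _x_at probe sets, where Rps24 was at −0.85. Rpsa was at 0.036 with equal array medians, and Rpl39l at −0.0055 to 0.48 without 1 array, the lowest without L-LY29 replicate 3. Rps4l was at 0.30 after quantile normalisation, 0.10 under equal medians, and −0.25 to 0.022 without 1 array, the highest without H-LY29 replicate 1. Another probe set stood for Rpl27 after quantile normalisation and without an L-LY29 array, and for Rpl22, Rps20 and Rps24 without _s_at and _x_at probe sets, and the cause of the others was not tested. Over the named genes and alternatives, 460 results kept direction and call, 10 lost the call, 2 gained one and 17 turned sign.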
